A study of Mus musculus with 2 samples.

Results

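Osteoclasts are the cells of the blood lineage that dissolve bone, and the ones described here came from digit tips of adult mice that were regenerating after amputation. Members were chosen among the kept cell barcodes of single-cell RNA sequencing libraries by the levels of 6 genes. A member had at least 2 unique molecular identifiers (UMIs, each standing for 1 captured RNA molecule) summed over Ocstamp, Dcstamp and Atp6v0d2. It also had at least 20 UMIs per 10000 of the barcode (CP10k) summed over Acp5, Ctsk and Mmp9. This rule found 65 osteoclasts among 3937 kept barcodes, of 11023 deposited. The Lmx1b library gave 25 of its 2325 kept barcodes, a share of 1.08% (exact 95% binomial interval 0.697 to 1.58%). The Pdgfra library gave 40 of 1612, a share of 2.48% (1.78 to 3.36%). Kept barcodes had at least 500 genes, at least 3000 UMIs and at most 10% mitochondrial UMIs.

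There were 2 libraries, 1 from Lmx1bCreERT2;R26-LSL-TdT mice and 1 from PdgfraCreERT;R26-LSL-TdT mice, all aged 10-12 weeks. In both lines tamoxifen, 3 mg per day for 4 days, lets a Cre enzyme switch on the red fluorescent reporter tdTomato wherever the driver gene is used. Digits were amputated 10 days after tamoxifen and the regenerate distal to the cut was collected at 14 days, digested with Liberase and passed through a 20 µm strainer. No unamputated, untreated or Cre-negative group was analysed here, and neither driver is known as a gene of the osteoclast lineage. The number of mice behind each library was not given in the sources used here, so library, line and animal cannot be told apart and the lines were not tested against each other.

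Osteoclasts form when precursors of the monocyte and macrophage lineage receive the cytokines CSF1 and RANKL, switch on the transcription factor NFATc1 and fuse into cells with several nuclei. The mature cell seals itself to bone with an integrin ring, pumps acid onto the mineral with a vacuolar proton pump (V-ATPase) and releases the protease cathepsin K. In the amputated mouse digit they erode the stump of the terminal bone before a blastema forms and rebuilds the tip. How many large cells with several nuclei the strainer held back was not tested.

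Start-site sequences are shown for 3 genes that mark the cells: the rule genes Acp5 (tartrate-resistant acid phosphatase) and Ctsk (cathepsin K), and Oscar, a costimulatory receptor with no UMI in any macrophage. Each run is 300 bases, 250 before and 50 from the annotated start, from RefSeq on GRCm38.p6, written 5′ to 3′ along the gene. Capitals mark the letters GGAAA, the core bound by NFAT and ETS-family factors, and the 7-letter words TCACGTG or TCATGTG, the site type of the MITF family, on either strand.
Acp5, the third listed start, minus strand, chr9:22130549-22130848: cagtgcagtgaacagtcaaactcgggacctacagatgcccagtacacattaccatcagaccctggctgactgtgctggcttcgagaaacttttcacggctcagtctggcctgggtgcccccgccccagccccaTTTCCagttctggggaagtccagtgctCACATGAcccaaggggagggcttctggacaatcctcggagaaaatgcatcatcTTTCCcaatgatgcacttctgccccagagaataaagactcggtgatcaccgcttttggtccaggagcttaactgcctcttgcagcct
Ctsk, plus strand, chr3:95498960-95499259: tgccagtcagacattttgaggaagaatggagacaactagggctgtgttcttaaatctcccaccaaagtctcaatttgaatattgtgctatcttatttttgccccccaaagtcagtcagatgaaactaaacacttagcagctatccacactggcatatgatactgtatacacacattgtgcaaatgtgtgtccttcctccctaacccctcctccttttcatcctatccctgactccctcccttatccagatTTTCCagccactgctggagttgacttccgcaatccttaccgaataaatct
Oscar, minus strand, chr7:3616108-3616407: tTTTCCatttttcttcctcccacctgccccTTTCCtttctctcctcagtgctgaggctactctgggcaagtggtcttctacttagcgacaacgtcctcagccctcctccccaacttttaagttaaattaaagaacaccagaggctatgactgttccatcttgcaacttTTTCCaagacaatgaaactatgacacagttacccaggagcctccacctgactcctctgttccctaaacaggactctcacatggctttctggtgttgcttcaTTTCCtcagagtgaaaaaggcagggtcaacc
The Acp5 window held 1 MITF-family word, written CACATGA on this strand, and 2 GGAAA cores; it is shown because it holds that word, and the other listed Acp5 starts, the first and the second, held 0 such words and 1 GGAAA core each. The Ctsk window held 1 GGAAA core and the Oscar window 4. Such matches are common: 61.3% of 27025 RefSeq start windows of this length held GGAAA on either strand, and 7.42% held TCACGTG or TCATGTG. Among 173 windows of genes called higher in osteoclasts than in macrophages (defined below) the shares were 56.6% and 4.05%, against 59.3% and 9.30% of 4162 windows of all tested genes. The matches describe letters only. For Mmp9, Ocstamp, Dcstamp, Atp6v0d2 and Nfatc1 no start window was used here.

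The members were deeply read. The median osteoclast carried 40560 UMIs from 5893 genes (Lmx1b library) or 38806 UMIs from 5625 genes (Pdgfra library). Macrophages, taken as barcodes with at least 10 CP10k of C1qa, C1qb and C1qc that were not members, had medians of 27992 and 21899.5 UMIs in 86 and 82 cells. Of the other kept barcodes, 2214 and 1490, 1446 and 1098 had over 1% of their UMIs from 10 mesenchymal genes. Among them an endothelial gate (592 and 292 barcodes) served as a class that should lack osteoclast RNA, at median depths of 12944 and 12176.5 UMIs. The libraries shared 10 barcode sequences, none of them an osteoclast. The mitochondrial share of UMIs had a median of 5.39% in the osteoclasts of the Lmx1b library and 6.37% in those of the Pdgfra library, against 4.35% and 4.77% in macrophages.

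The rule genes themselves are given as a description, since they chose the cells. Acp5 reached 7670 CPM (UMIs of a gene per 1000000 summed UMIs of a class) in osteoclasts and 185 CPM in macrophages of the Lmx1b library, and 4563 against 100.2 CPM in the Pdgfra library. Mmp9, a gelatinase, had 5873 against 9.14 CPM and 2368 against 3.63 CPM. Ctsk had 14014 CPM in osteoclasts, 181 CPM in macrophages and 570.5 CPM in other barcodes of the Lmx1b library, and 7884, 452 and 553 CPM in the Pdgfra library. Ctsk was thus higher in other barcodes than in macrophages, and a Ctsk UMI was found in 34% and 31.8% of endothelial barcodes. The fusion genes were sparser: Ocstamp had 326 against 2.08 CPM and 158 against 1.04 CPM, and Dcstamp 107 against 0.416 CPM and 86.9 against 2.08 CPM. Of the members, 68% and 70% had an Ocstamp UMI, while every one had an Atp6v0d2 UMI, a subunit of the proton pump. In the Pdgfra library 1 member had no Acp5 UMI.

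At the edge of the rule, the lowest summed Acp5, Ctsk and Mmp9 among members were 26.5, 31.1 and 53.4 CP10k in the Lmx1b library and 20.5, 24.0 and 27.7 CP10k in the Pdgfra library. Just outside stood barcodes at 19.7, 19.1 and 18 CP10k and at 19.4, 18.6 and 15 CP10k. A further 60 and 24 barcodes passed the protease level with 0 UMIs of the fusion set, and 6 and 5 with 1 UMI. The members with only 2 fusion-set UMIs numbered 0 and 2.

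The mitochondrial limit took out cells with the osteoclast signature, as it did cells of other classes. Of barcodes that met both osteoclast levels and the depth limits, 13 of 38 (34.2%, interval 19.6 to 51.4%) were over 10% mitochondrial UMIs in the Lmx1b library and 10 of 50 (20%, 10.0 to 33.7%) in the Pdgfra library. For the macrophage gate the numbers were 4 of 90 (4.44%, 1.22 to 11.0%) and 13 of 95 (13.7%, 7.49 to 22.3%). The endothelial gate lost 25% and 35.1%. Barcodes in neither the osteoclast nor the macrophage gate lost 22.9% (657 of 2871) and 26.7% (543 of 2033). The osteoclast share was thus above theirs in the Lmx1b library and below it in the Pdgfra library, with both intervals spanning it. The barcodes taken out kept medians of 23473 and 17394.5 UMIs and 244 and 195 CP10k of Acp5, Ctsk and Mmp9, and 12 and 10 of them had an Ocstamp or Dcstamp UMI.

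**Figure D1:**
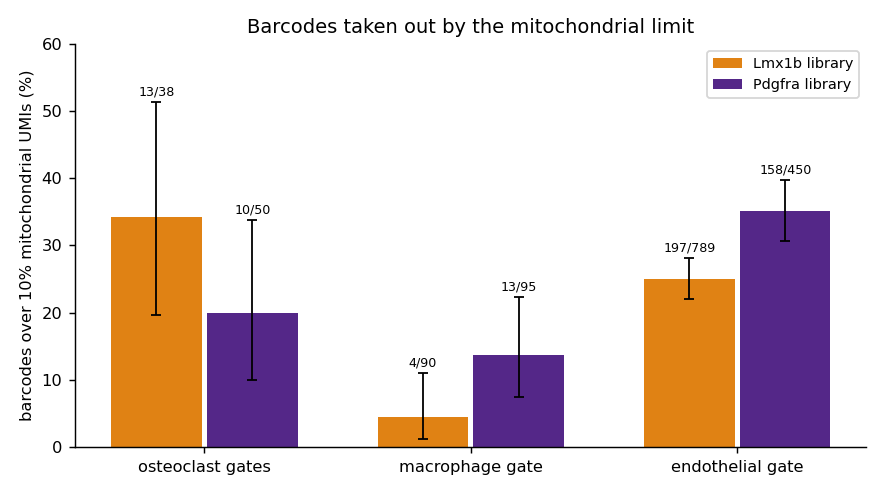
Share of barcodes over 10% mitochondrial UMIs (y axis, %) among barcodes meeting the osteoclast, macrophage and endothelial gates (x axis), with the Lmx1b library in orange and the Pdgfra library in purple. Bars are shares, lines are exact 95% binomial intervals and the numbers above are barcodes over the limit of all meeting the gate; the osteoclast gates lost 13 of 38 and 10 of 50.

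For every other gene, UMIs were summed over the cells of a class within a library and the CPM compared. A gene was called when it differed 2-fold or more the same way in both libraries, among genes with at least 20 UMIs over both classes and a mean of at least 20 CPM in each library. Folds are followed by exact 95% Poisson intervals, which cover counting error only, and not the spread between cells or animals. Against macrophages 231 of 5306 genes were called higher (4.35%) and 412 lower (7.76%), while 16 (0.302%) passed 2-fold in opposite directions. These counts include the 9 genes that set the gates, 6 of those called higher and 3 of those called lower. Counts of a list leave out the genes that set the gates. Each list count against macrophages below is to be read beside these shares of all tested genes, 4.35% higher and 7.76% lower. The cells were chosen by their RNA, so these are descriptions of the chosen classes and no test was made. Over all tested genes the median log2 fold was -0.0052 (Lmx1b library) and 0.080 (Pdgfra library).

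**Figure D2:**
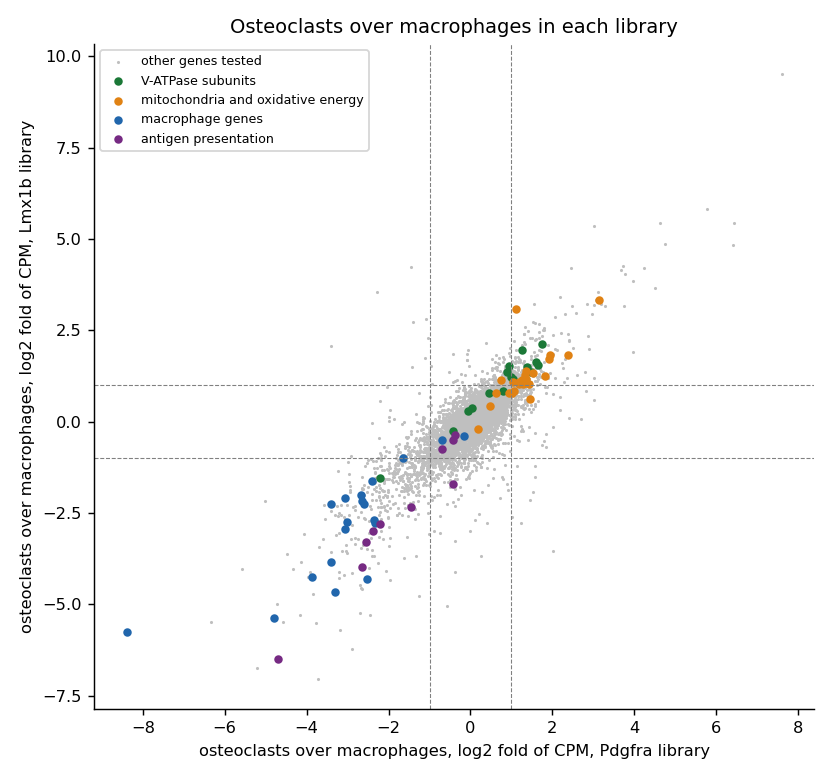
Log2 fold of CPM, osteoclasts over macrophages, in the Lmx1b library (y axis) against the Pdgfra library (x axis), 1 point for each of 5297 tested genes, the 9 gate genes left out, with 4 gene lists in colour and dashed lines at 2-fold. V-ATPase subunits and mitochondrial genes lie mostly at the upper right and macrophage and antigen presentation genes at the lower left; the point at the top right is Mt3.

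Among transcription factors of osteoclast formation, 5 of 19 measured were higher in osteoclasts than in macrophages and 1 was lower, with list medians of -0.13 and 0.36 (log2). Nfatc1, the master regulator of the fate, had 429 CPM in osteoclasts against 46.1 CPM in macrophages of the Lmx1b library, 9.31-fold (7.55 to 11.6). In the Pdgfra library it had 532 against 74.2 CPM, 7.16-fold (5.99 to 8.61). An Nfatc1 UMI was present in 96% and 95% of osteoclasts, with medians of 4.14 and 5.03 CP10k, but also in 43.2% and 56.8% of endothelial barcodes, so the gene marked these cells by level and not by presence. Jdp2, an AP-1 family partner of NFATc1 in osteoclasts, was 11.6-fold (10.1 to 13.4) and 8.60-fold (7.28 to 10.2) higher. Ppargc1b, a coactivator of mitochondrial genes, was 10.1-fold (5.71 to 19.0) and 8.86-fold (5.32 to 15.7) higher. Prdm1, which encodes the repressor BLIMP1, was 7.87-fold (4.99 to 12.8) and 5.98-fold (4.12 to 8.91) higher. Mitf, the partner of TFE factors at the Acp5 and Ctsk genes, was 2.81-fold and 2.11-fold higher. The pan-myeloid factor Spi1 differed by less, 789 against 594 CPM and 697 against 483 CPM. Jun was the member called lower, at 110 against 318 CPM and 171 against 491 CPM.

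Repressors that hold precursors in the macrophage state went the other way, with 4 of 8 measured lower, 0 higher and list medians of -1.12 and -0.73. Irf8 had 20.7 CPM in osteoclasts against 120 CPM in macrophages of the Lmx1b library and 13.0 against 117 CPM in the Pdgfra library, 5.83 and 9.0 times lower. Id3 was 2.63 and 2.02 times lower and the inhibitory receptor Lilrb4a 2.31 and 6.01 times lower. Bcl6 was under the level filter, with 0 UMIs in 25 osteoclasts against 56 in macrophages of the Lmx1b library and 13 against 40 in the Pdgfra library.

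The receptors that receive the fate signals did not separate the classes. None of 11 measured genes of this list was called higher, 1 was called lower (Lilrb4a, which is also on the repressor list), and the list medians were -0.39 and -0.48. Tnfrsf11a, which encodes RANK, had 131 CPM in osteoclasts against 87.7 CPM in macrophages of the Lmx1b library, 1.49-fold (1.19 to 1.85), and 120 against 119 CPM in the Pdgfra library, 1.01-fold (0.832 to 1.23). Csf1r had 583 against 764 CPM and 518 against 576 CPM. Both were far above other barcodes, which had 3.15 and 3.53 CPM of Tnfrsf11a and 8.06 and 7.73 CPM of Csf1r. Trem2, a receptor that signals through DAP12 (Tyrobp), had 518 against 1026 CPM and 329 against 1033 CPM. With members lacking both Ocstamp and Dcstamp left out, 3 of the 11 were lower.

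Sparse receptors of later osteoclasts were seen in few cells. Oscar had 34 UMIs in osteoclasts and 0 in macrophages of the Lmx1b library, and 22 against 0 in the Pdgfra library. Set against a floor of 3 UMIs in the macrophages, that is at least 25.6-fold and at least 8.76-fold higher. Its UMIs were in 32% and 25% of osteoclasts and in 0.169% and 0.342% of endothelial barcodes. Siglec15 had 10 and 6 UMIs in osteoclasts and 0 in macrophages. The calcitonin receptor gene Calcr had 0 UMIs in osteoclasts of either library, which allows up to 2.82 and 1.86 CPM and up to 12% and 7.5% of cells with a UMI. Calcr was therefore not detected, and whether it was absent or present under these bounds was not tested.

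The acid machinery set osteoclasts apart from macrophages. Of 10 measured genes for acid and ion transport 6 were called higher and 0 lower, with list medians of 2.26 and 1.22. Slc9b2, a sodium-proton exchanger of osteoclasts, had 401 CPM in osteoclasts against 7.06 CPM in macrophages of the Lmx1b library, 56.8-fold (35 to 98.4). In the Pdgfra library it had 311 against 5.71 CPM, 54.5-fold (30.2 to 110). Its UMIs were in 88% and 85% of osteoclasts, 14.0% and 12.2% of macrophages and 0.338% and 0.685% of endothelial barcodes. By presence, Slc9b2 thus set most osteoclasts apart from most macrophages and nearly all endothelial barcodes. These shares were not thinned to equal depth, and no share is given here for the other barcodes as a whole.

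Slc4a2, the bicarbonate exchanger that balances the pump, was 4.85-fold (3.56 to 6.69) and 3.17-fold (2.39 to 4.24) higher. Slc37a2, a sugar phosphate carrier of osteoclast lysosomes, was 6.06-fold and 2.51-fold higher. Tfrc, the transferrin receptor that brings in iron, had 218 against 23.3 CPM and 273 against 30.1 CPM, 9.37-fold and 9.07-fold. Snx10, a sorting nexin whose loss causes dense bones, was 4.75-fold and 5.30-fold higher. Clcn7 and Ostm1, which form the chloride transporter of the acid vesicle, stayed under 2-fold, at 1.76 and 1.49 for Clcn7 and 1.86 and 1.32 for Ostm1. Car2, the carbonic anhydrase that supplies protons, was under the level filter, with 27 against 1 UMIs in the Lmx1b library and 127 against 2 in the Pdgfra library, in 36% and 55% of osteoclasts and 1.16% and 2.44% of macrophages.

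Of 16 measured V-ATPase subunits 7 were called higher and 1 lower, with list medians of 1.29 and 0.96. Atp6v1b2 had 814 against 187 CPM and 778 against 234 CPM, 4.35-fold (3.87 to 4.88) and 3.33-fold (2.99 to 3.72). The other peripheral subunits called were Atp6v1e1 (3.88-fold and 2.39-fold), Atp6v1d (3.11-fold and 3.04-fold), Atp6v1g1 (2.95-fold and 3.15-fold) and Atp6v1c1 (2.26-fold and 2.06-fold). Tcirg1, the a3 subunit that targets the pump to the bone-facing membrane, had 507 against 176 CPM and 313 against 165 CPM, and at 2.89-fold and 1.90-fold missed the call in the Pdgfra library. Atp6v0a1, which encodes a different a subunit, was called lower, with 23.5 against 69.0 CPM and 17.4 against 81.0 CPM. Against other barcodes 12 of 16 subunits were higher, where 13.1% of 5733 tested genes were. The count against macrophages moved with the choice of cells: it was 3 of 16 at a mitochondrial limit of 5%, which left 12 and 12 members, and 11 of 16 with only members at 100 CP10k of Acp5, Ctsk and Mmp9 or more.

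Genes of mitochondria and oxidative energy were higher as well: 18 of 26 measured were called higher, 0 lower, and the medians were 1.09 and 1.29. Mdh2, of the citric acid cycle, had 684 against 194 CPM and 530 against 139 CPM, 3.53-fold (3.14 to 3.98) and 3.82-fold (3.33 to 4.40). Idh3a, of the same cycle, was 3.51-fold and 5.21-fold higher. The respiratory genes Cycs (2.35-fold and 3.55-fold), Cox5a (2.12-fold and 2.26-fold) and Atp5b (2.50-fold and 2.86-fold) were also higher. The share of UMIs from the mitochondrial genome was higher in osteoclasts as well, by the medians above, and its part in these calls was not tested. At the 5% mitochondrial limit 9 of 26 were called. Chchd10, a mitochondrial protein not on the list, had 470 against 25.3 CPM and 444 against 23.4 CPM, 18.5-fold and 19.0-fold.

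Glycolysis differed less. Of 11 measured genes 0 passed 2-fold in both libraries in either direction, and the medians were 0.71 and 0.57. Ldha had 808 against 403 CPM, 2.00-fold (1.82 to 2.20), and 540 against 358 CPM, 1.51-fold (1.36 to 1.67). Ckb, the brain-type creatine kinase that buffers ATP, is on the acid and the mitochondrial lists. It had 1763 against 209 CPM in the Lmx1b library, 8.45-fold (7.66 to 9.35), and 339 against 156 CPM in the Pdgfra library, 2.17-fold (1.88 to 2.50). At the 5% mitochondrial limit its log2 folds were 1.81 and 0.18.

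**Figure D3:**
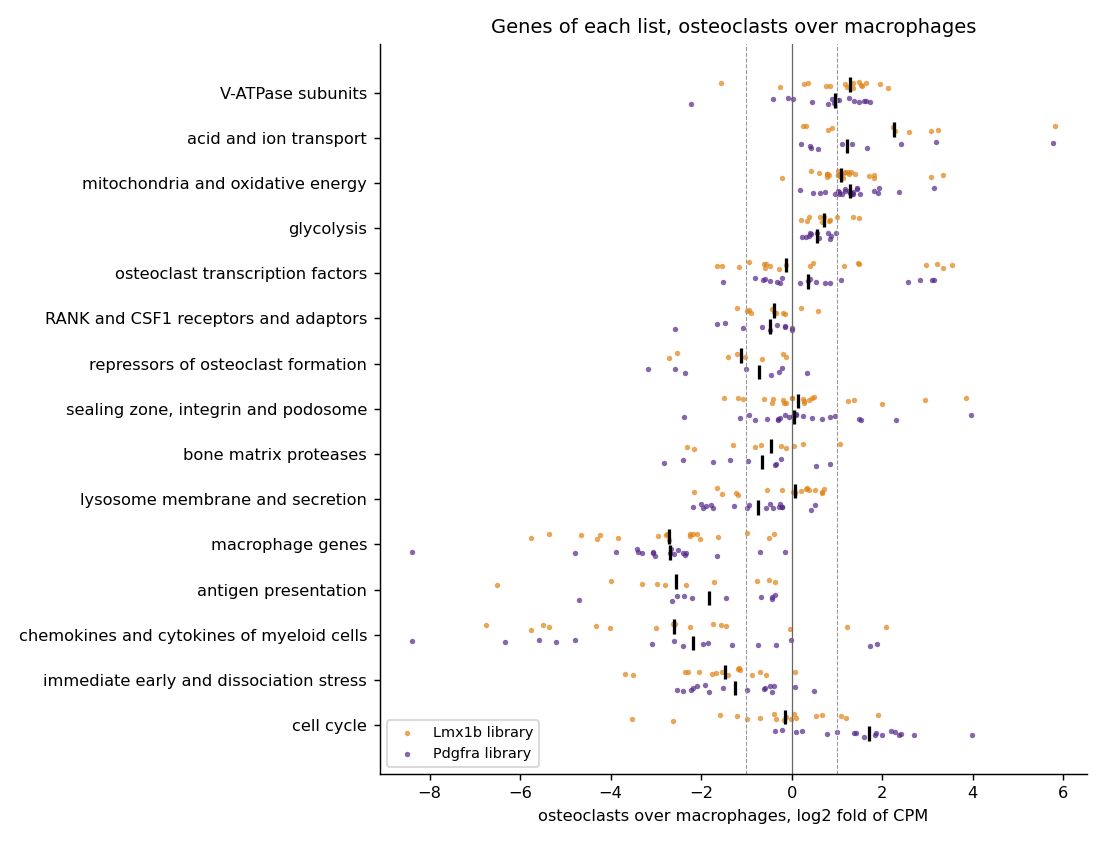
Log2 fold of CPM, osteoclasts over macrophages (x axis), for the measured genes of 15 lists (y axis), 1 point per gene, Lmx1b library in orange above the Pdgfra library in purple; black ticks are list medians and dashed lines 2-fold. Acid and ion transport, V-ATPase and mitochondrial medians lie right of 0 in both libraries, macrophage gene medians at -2.70 and -2.68.

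Proteases and lysosomes other than the rule genes did not follow the acid machinery. Of 10 measured proteases of bone matrix 0 were higher and 3 were lower. The cathepsin Ctss had 602 against 3000 CPM and 404 against 2870 CPM, 4.98 and 7.11 times lower. Lgmn, which encodes legumain, was 4.46 and 5.26 times lower and Ctsb 2.45 and 3.35 times lower. Of 18 lysosomal membrane and secretion genes 0 were higher and 5 were lower, among them Lamp1 with 335 against 1499 CPM and 342 against 1363 CPM. Cd68, used as a marker of both cell types, was near equal at 954 against 830 CPM and 604 against 889 CPM. Mmp14, a membrane protease, had 765 against 363 CPM and 586 against 324 CPM, 2.11-fold and 1.81-fold.

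Of 22 measured genes for the sealing zone, integrins and podosomes 3 were higher and 2 lower, with medians of 0.13 and 0.06. Over all tested genes 4.35% were higher and 7.76% lower, so the list as a whole stood little apart. Itgb3, which pairs with Itgav in the vitronectin receptor that fixes the cell to bone, had 60.1 against 4.16 CPM, 14.5-fold (7.38 to 31.6), and 40.3 against 2.60 CPM, 15.5-fold (6.33 to 49.4). An Itgb3 UMI was in 36% and 45% of osteoclasts, 9.30% and 6.10% of macrophages and 32.3% and 27.1% of endothelial barcodes. After thinning to 3000 UMIs per cell the shares were 16% and 15% of osteoclasts, 1.16% and 1.22% of macrophages and 8.95% and 8.22% of endothelial barcodes. At the 5% mitochondrial limit the log2 folds of Itgb3 over macrophages were 0.87 and 0.28.

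Src, the kinase of the ruffled border, had 170 against 22 CPM and 139 against 28.0 CPM, 7.72-fold (5.66 to 10.7) and 4.96-fold (3.67 to 6.8). Rac2 was 2.37-fold and 2.89-fold higher. Itgav, at 2.59-fold and 1.8-fold, missed the call in the Pdgfra library, and Itgb5 was 2.81 and 2.19 times lower. Of 11 measured fusion genes outside the rule 2 were higher: Snx10, given above, and Myo10, a filopodial myosin, at 3.93-fold and 4.21-fold. Myo1d, an unconventional myosin, was among the leading genes at 17.7-fold and 12.8-fold, though it had 68.7 and 61.5 CPM in other barcodes too.

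Macrophage identity genes were low. Of 19 measured, 16 were lower in osteoclasts, 0 higher, and the medians were -2.70 and -2.68. Cx3cr1, the fractalkine receptor, had 4 UMIs in osteoclasts against 493 in macrophages of the Lmx1b library and 1 against 402 in the Pdgfra library. Ccr2, the receptor of recruited monocytes, had 2 against 186 UMIs and 3 against 99 UMIs, and P2ry12, a nucleotide receptor, 2 against 144 and 3 against 95. Mrc1 was 25.3 and 9.94 times lower and Adgre1, the F4/80 antigen, 7.74 and 8.40 times lower. Most of the UMIs of Mrc1 and Adgre1 that osteoclasts did hold were in the 6 and 11 members with no Ocstamp or Dcstamp UMI, described further on: 95.5% and 96.8% of those of Mrc1 and 84.3% and 97.2% of those of Adgre1. The other members held 8 and 2 Adgre1 UMIs and 1 and 2 Mrc1 UMIs, so both genes were further below macrophages in them.

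Lyz2, the lysozyme of macrophages, had 6609 against 20534 CPM in the Lmx1b library and 4555 against 24053 CPM in the Pdgfra library. A single osteoclast held 66.8% of its osteoclast UMIs in the Lmx1b library, and the median osteoclast had 0.764 and 0.418 CP10k where the median macrophage had 172 and 238 CP10k. Apoe was 19.7 and 5.73 times lower. Of 15 genes shared by myeloid cells, 15 were above other barcodes, with medians of 4.75 and 4.38. Against macrophages 1 of the 15 was higher, 3 were lower, and the medians were -0.48 and -0.80.

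Antigen presentation was lower, with 6 of 10 measured genes lower, 0 higher and medians of -2.56 and -1.83. H2-Aa, a class II gene, had 116 against 1142 CPM and 86.2 against 502 CPM, 9.88 and 5.83 times lower. The costimulatory gene Cd86 had 1 against 206 UMIs and 5 against 156 UMIs, and the class II invariant chain Cd74 was 5.02 and 2.72 times lower. The class I light chain B2m stayed within 2-fold, 1.69 and 1.61 times lower.

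Most chemokine and cytokine genes were also lower, 10 of 16 measured, while 2 were higher. The 2 were Ccl9, a chemokine made by osteoclasts, with 858 against 202 CPM and 684 against 185 CPM, and its receptor Ccr1, at 2.32-fold (1.88 to 2.87) and 3.32-fold (2.64 to 4.20). Ccl2 had 4 against 406 UMIs and 1 against 96 UMIs, and Il1b 12 against 442 UMIs and 2 against 115 UMIs. Ccl8 had 0 UMIs in osteoclasts, against 733 and 133 in macrophages, at least 108 and at least 37.1 times lower. Of 9 measured factors by which osteoclasts are thought to speak to osteoblasts, Ccl9 was the 1 called higher, and Igf1 (4.89 and 8.11 times), Tgfb1 (2.96 and 2.50 times) and Cxcl16 (3.32 and 6.05 times) were lower. Sema4d, a semaphorin of that list, had 245 against 82.3 CPM and 154 against 95 CPM, and was not called.

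Immediate early and dissociation stress genes were lower in osteoclasts for 8 of 16 measured and higher for 0, with medians of -1.47 and -1.25. Atf3 was 11.3 and 5.76 times lower, Klf2 4.93 and 4.29 times and Dusp1 4.11 and 4.67 times. Both classes went through the same digestion. Whether these genes differ between the classes in the tissue was not tested.

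**Figure D4:**
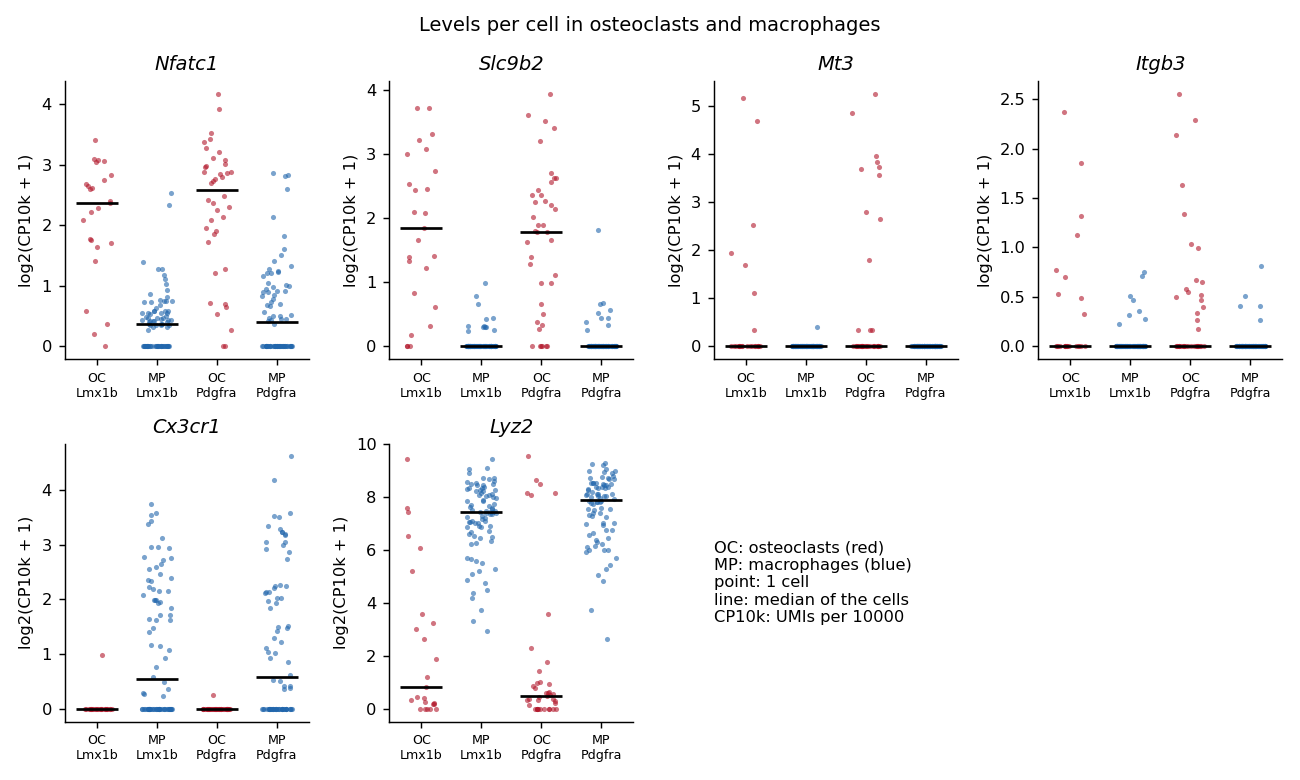
Levels per cell of 6 genes, log2(CP10k + 1) on the y axis, in osteoclasts (OC, red) left of macrophages (MP, blue) for the Lmx1b and then the Pdgfra library (x axis); each point is 1 cell and black lines are medians. Nfatc1 and Slc9b2 are high in most osteoclasts and Lyz2 in most and Cx3cr1 in many macrophages, while Mt3 and Itgb3 are high in some osteoclasts.

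Ranked by fold alone, the genes furthest above macrophages, after those already described, were mostly not classical markers. Mt3, a metallothionein that binds zinc and copper and is best known from brain, led with 302 CPM in osteoclasts of both libraries, against 1 UMI in macrophages of the Lmx1b library and 0 in those of the Pdgfra library. It was present in 28% and 32.5% of osteoclasts, 1.16% and 0% of macrophages and 0.676% and 1.03% of endothelial barcodes, and 57.5% of its UMIs in the Lmx1b library were in 1 cell. Rufy4, an adaptor of lysosome and autophagosome traffic, had 57 against 0 UMIs and 73 against 1 UMI. Nmb, which encodes the peptide neuromedin B, was 43.0-fold (22.1 to 95.5) and 24.6-fold (11.6 to 62.2) higher, and at the 5% mitochondrial limit its log2 fold in the Lmx1b library was -0.45.

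Kbtbd11, a gene linked to osteoclast formation in mouse cells, was 28.3-fold (10.4 to 108) and 84.8-fold (14.7 to 3398) higher. Apbb1 was 28.8-fold and at least 27.1-fold higher, Bdh2, a dehydrogenase, 16.3-fold and 13.7-fold, and Nudt22 19.3-fold and 13.2-fold. Adck3, a kinase-like protein of ubiquinone synthesis, was 12.6-fold and 22.9-fold higher and Fam102a, which has been linked to RANKL signalling, 9.04-fold and 13.5-fold. At the other end, after the genes above, stood Cbr2 and F13a1 and then Cd83, which was 16.4 and 20.2 times lower. Of the 121 named or listed genes called against macrophages, the gate genes left out, 83 stayed at 2-fold or more in both libraries under all 15 alternatives tried, Slc9b2, Nfatc1, Tfrc and Irf8 among them.

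Cycling genes were spread unevenly over members and libraries. Of 18 measured, 3 were called higher than in macrophages and 0 lower, with medians of -0.16 (Lmx1b library) and 1.71 (Pdgfra library). The 3 were Ube2c (3.75-fold and 15.7-fold), Cdc20 (2.30-fold and 5.15-fold) and Ccnb1 (2.12-fold and 4.84-fold), all of the late phases of division. Mki67, by contrast, was at 0.910-fold and 2.70-fold. The UMIs came from few cells: 3 and 9 members had 10 or more UMIs of the 6 cycling genes Mki67, Top2a, Cdk1, Ccnb1, Ube2c and Birc5. Without them Ube2c was at log2 -5.95 and -1.23 against macrophages, which kept their own 14 of 86 and 7 of 82 cells with 10 or more such UMIs. As Ube2c and Ccnb1 are among the 6 genes, a drop on leaving these members out is built into their choice. After each cell was thinned to 3000 UMIs, 8% and 17.5% of osteoclasts had 2 or more UMIs of the 6 genes, against 15.1% and 8.54% of macrophages; unthinned, the shares were 16% and 32.5% against 31.4% and 26.8%.

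In these 3 and 9 cells the median sum of Acp5, Ctsk and Mmp9 was 94.7 and 42.6 CP10k, against 104 and 112 CP10k over all members. Their median depth was 78872 and 57099 UMIs. Whether these barcodes hold more than 1 cell was not tested beyond a doublet score, and leaving out the 5% of barcodes with the highest score removed 0 and 1 osteoclasts.

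RNA of other cell types was low in most members. Summed over 10 mesenchymal and 8 osteoblast genes, the median member had 9.72 and 14.8 CP10k, and 1 and 5 members had over 1% of their UMIs from these lists, up to 1853 CP10k. Against macrophages 3 mesenchymal genes were called higher, Col3a1, Postn and Lum. A single cell held 91.2% (Lmx1b library) and 44.9% (Pdgfra library) of the osteoclast Col3a1 UMIs, and without cells over 1% the log2 folds of Col3a1 were -0.90 and -0.50. Endothelial markers reached at most 3.32 and 1.04 CP10k in any member, and of the T and NK list 5 of 5 markers found were at 0 in the Lmx1b library and 4 of 5 in the Pdgfra library. Against other barcodes all 10 mesenchymal, 6 osteoblast and 6 endothelial genes measured were lower in osteoclasts, where 17.4% of tested genes were.

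tdTomato, the lineage reporter, had 52.6 CPM in osteoclasts against 40.3 CPM in macrophages and 249 CPM in other barcodes of the Lmx1b library. In the Pdgfra library it had 555, 428 and 2237 CPM. The 5 osteoclasts there with over 1% mesenchymal and osteoblast RNA had 18.3 to 47.9 CP10k of tdTomato. Among the other osteoclasts of that library the highest value was 23.0 CP10k. The osteoclast level without those 5 members was not computed. The share of cells with a tdTomato UMI was 68% and 92.5% in osteoclasts, 50% and 84.1% in macrophages and 89.5% and 93.2% in endothelial barcodes. After thinning it was 12% and 45% in osteoclasts, 10.5% and 43.9% in macrophages, 49.8% and 71.2% in endothelial barcodes and 34.4% and 77.9% in other barcodes. At equal depth the shares of osteoclasts were thus near those of macrophages and below those of the other classes. How much of the tdTomato in osteoclasts is free RNA, or RNA of another cell in the same barcode, was not tested.

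The 65 members were far from uniform. The summed level of Acp5, Ctsk and Mmp9 ranged over 26.5 to 1043 CP10k around a median of 104 in the Lmx1b library, and over 20.5 to 588 around 112 in the Pdgfra library. Since these genes chose the cells, the correlations that follow are descriptions within each library, over 25 and 40 cells, with no p. They used levels that were not thinned, at depths of 4183 to 92634 UMIs (Lmx1b library) and 3647 to 87299 UMIs (Pdgfra library). With the protease sum, Itgb3 had a Spearman rho of 0.79 and 0.63, Slc9b2 0.68 and 0.80, Mt3 0.62 and 0.70, Ckb 0.64 and 0.63 and Nfatc1 0.44 and 0.58. The mitochondrial share of UMIs had 0.45 and 0.56, and total UMIs 0.32 and -0.11. Lyz2 ran the other way at -0.43 and -0.35.

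Of 4547 genes ranked by their mean rho with the protease sum, the 10 highest had means of 0.73 to 0.81, where the median gene had 0.046 and 2.31% were over 0.5. They were Npc2, a cholesterol carrier of the lysosome, Ndufa1 of respiratory complex I, the pump subunits Atp6v1c1 and Atp6v1g1, Fam198b, Snx10, Slc9b2, Gpr137b, a lysosomal membrane protein, Fam109a and Slc4a2.

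Members with an Mt3 UMI, 7 and 13, sat mostly toward the high end: their median protease sum was 469 and 284 CP10k, against 91.8 and 60.7 CP10k in the 18 and 27 members without one. The lowest sums in members with an Mt3 UMI were 93.1 and 75.1 CP10k. Their median mitochondrial share was 7.31% and 8.10%, against 4.32% and 5.33%, so Mt3, proteases and mitochondrial share moved together. Of the members with 10 or more cycling UMIs, 0 and 1 had an Mt3 UMI.

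At the other end stood 6 and 11 members with no UMI of Ocstamp or Dcstamp, which entered through Atp6v0d2. Their median Acp5 was 5.94 and 1.85 CP10k, against 43.7 and 45.4 CP10k in the 19 and 29 members with such a UMI. Their median Lyz2 was 121 and 271 CP10k, against 0.324 and 0.290 CP10k. They were mixed, with Lyz2 from 0 to 699 and from 0 to 748 CP10k. Some with 0 Lyz2 had more Acp5, such as 39.9 CP10k (Lmx1b library) and 30.2 CP10k (Pdgfra library). Another of the Pdgfra library had 0.575 CP10k of Lyz2 and 1113 CP10k of mesenchymal and osteoblast RNA. Of these cells, 3 and 5 also passed the C1q level of macrophages. The Lyz2 level summed in osteoclasts rested on them: without them Lyz2 was at log2 -4.46 and -7.98 against macrophages, where with them it was at -1.64 and -2.40. Against other barcodes of the Pdgfra library, leaving them out turned the log2 fold of Lyz2 to -1.05, that of Fcgr3 to -1.04 and that of Adgre1 to -0.55. Those other barcodes were not free of myeloid RNA: 24 of the 1490 had over 1% of their UMIs from the 15 genes shared by myeloid cells. What these cells are was not tested.

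**Figure D5:**
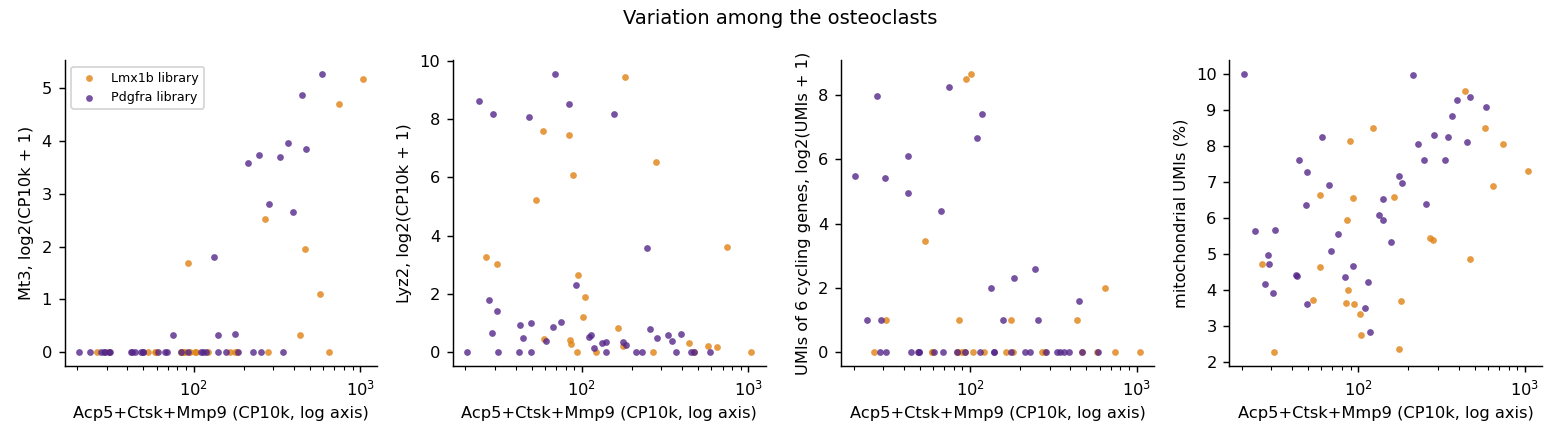
Each of the 65 osteoclasts by its summed Acp5, Ctsk and Mmp9 (x axis, CP10k, log axis) against, from left to right, Mt3 and Lyz2 (log2 of CP10k + 1), UMIs of 6 cycling genes (log2 of UMIs + 1) and mitochondrial UMIs (%). The Lmx1b library is in orange and the Pdgfra library in purple. Mt3 appears mostly at high protease levels, and high Lyz2 and most cycling cells lie at low to middle levels.

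The osteoclasts of the Lmx1b library were also set against those of the Pdgfra library. This compares 2 libraries of 25 and 40 cells and not 2 genotypes. Of 5489 genes 111 (2.02%) were 2-fold or more higher and 142 (2.59%) lower in the Lmx1b library, with a median log2 fold of -0.0057. Nfatc1 was at 0.807-fold (0.719 to 0.906), Slc9b2 at 1.29-fold (1.13 to 1.47), and Oscar had 31.9 against 13.6 CPM. Atp6v0d2 was at 1.09-fold and the other rule genes between 1.23-fold for Dcstamp and 2.48-fold for Mmp9, with 34% of the Lmx1b library's Mmp9 UMIs in 1 cell.

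Many of the larger differences rested on single cells. Of Mmp12, 65 against 0 UMIs, 96.9% were in 1 cell, and of Col2a1, 11.4-fold higher, 95.3%. Likewise 80.6% of the Mmp13 UMIs, 84.7% of the Sfrp2 UMIs and 63.8% of the Igfbp5 UMIs of the Pdgfra library were in 1 cell, genes of mesenchyme that were 0.0394-fold, 0.0273-fold and 0.0471-fold in the Lmx1b library. The differences spread over more cells included the heat shock genes Hspa1a, with 113 against 6 UMIs (28.5-fold, 12.7 to 79.3) in 60% against 15% of cells, and Hspa1b at 12.7-fold. Hspa1a was also higher in macrophages of the Lmx1b library, 76.4 CPM against 9.86 CPM in those of the Pdgfra library. Ckb, in 84% and 90% of cells, was 5.21-fold (4.73 to 5.74) higher in the Lmx1b library. Clec4e, a pattern recognition receptor, was 16.1-fold (9.79 to 28.3) and Bst1 9.42-fold (4.62 to 21.7) higher.

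Lower in the Lmx1b library were tdTomato, with 52.6 CPM against 555 CPM (0.0947-fold, 0.0710 to 0.124), and Hist1h1b, a histone of dividing cells, with 1 against 75 UMIs. The 555 CPM of tdTomato includes the 5 Pdgfra members with over 1% mesenchymal and osteoblast RNA, described above. Car2 had 25.4 CPM against 78.8 CPM, 0.322-fold (0.204 to 0.491). Serping1 (0.0240-fold), Itm2a (0.126-fold) and Gpx3 (0.163-fold), all well above osteoclast levels in other barcodes, were also lower. At a mitochondrial limit of 5% the counts were 272 and 330 genes, so these counts depend on which cells are kept.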

How the data were processed

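Single-cell RNA sequencing (10x Genomics 3' kit, per the labels' protocols) was made from regenerating digit tips, with 1 library per mouse line. The deposited matrices hold unnormalized UMI counts for each barcode. Per the file headers Cell Ranger 4.0.0 wrote them; the reads were aligned to mm10 with tdTomato added, per the labels' protocols. The libraries hold 66867027 (Lmx1b) and 49084751 (Pdgfra) UMIs. Which barcodes were called cells before deposit was not given in the sources used here.

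Barcodes were filtered and classed as stated in the report, and doublets were kept in the main values. UMIs were summed per class and library and expressed as CPM. Ratios have exact Poisson intervals and shares exact Clopper-Pearson intervals (95%), for counting error only. Folds against 0 use a floor of 3 UMIs per class and library. Thinned shares use 3000 UMIs per cell. Named genes were members of the gene lists, the 15 largest folds each way against macrophages, the 8 each way between libraries, and the 10 most correlated with the protease sum. The members and lists were chosen with earlier results of these data known. The scripts were tested on simulated counts. Python 3.11.15, numpy 2.4.6, scipy 1.17.1, pandas 2.3.3, scanpy 1.11.5 (Scrublet), R 4.3.3 and edgeR 4.0.16 (TMM factors, no test) were used.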

Additional observations from a re-analysis of the deposited data

Results flagged for a closer look

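For 8 listed genes the osteoclasts lay 2-fold or more above macrophages in one library and 2-fold or more below in the other. With 1 library per line these differences were not tested. In log2, osteoclasts over macrophages, the bone and cartilage matrix genes Ibsp (2.08 in the Lmx1b library, -3.40 in the Pdgfra library), Spp1 (1.75 and -1.11) and Col2a1 (4.23 and -1.45) were higher in the Lmx1b library only. Taken gene by gene, the osteoclast with the most UMIs held 85.1% for Ibsp, 54.1% for Spp1 and 95.3% for Col2a1 there. The member with the most Spp1, 183 CP10k, had 7.59 CP10k of mesenchymal and osteoblast RNA and 699 CP10k of Lyz2. Bglap, the osteoblast gene for osteocalcin, ran the other way, at -2.13 and 1.46. The neutrophil gene S100a8 had 1.51 and -1.43, from 39 and 18 UMIs in osteoclasts.

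The genes of DNA synthesis Rrm2 (-3.54 and 2.01), Tk1 (-2.61 and 1.00) and Tyms (-1.20 and 1.59) were lower in osteoclasts of the Lmx1b library and higher in those of the Pdgfra library. Their osteoclast UMIs numbered 5, 12 and 20 (Lmx1b library) and 74, 99 and 83 (Pdgfra library). In the Pdgfra library no single osteoclast held more than 27.0% of any of them.

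Outside the kept barcodes, 13 barcodes of the Lmx1b library and 10 of the Pdgfra library met both osteoclast levels and the depth limits but were over 10% mitochondrial UMIs. Of barcodes in neither the osteoclast nor the macrophage gate, 22.9% and 26.7% were over 10% as well. With a limit of 20% the classes held 35 and 46 osteoclasts.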

How the results depend on the processing

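No paired analysis was possible because each line has 1 library, and the lines share no replicate pair; classes were compared within each library, with no test. Stability here means only a like value under another choice. Of the 231 and 412 genes called against macrophages, between 126 and 230 and between 335 and 409 were also called under the alternatives that kept the fold of 2 and the level filter; the lowest numbers came from the 5% mitochondrial limit, which left 12 and 12 members. Low UMI counts limit Oscar, Siglec15 and Calcr, Car2 was under the level filter, and 25 and 40 cells limit every share.

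Without the level filter the counts against macrophages were 365 higher and 705 lower, against other barcodes 1692 and 2762, and between libraries 257 and 475. A fold of 3 gave 69 and 193, 358 higher against other barcodes, and 31 and 49 between libraries. Between libraries the 5% mitochondrial limit gave 272 and 330, a protease minimum of 100 CP10k 249 higher, and means over cells 229 lower, which put 35.3% of calls higher, against 43.9% for sums. The protease minimum of 100 CP10k put the osteoclast share at 0.602% and 1.30%. Without thinning 80% of osteoclasts of the Lmx1b library had a Lyz2 UMI (44% thinned); in the Pdgfra library 72.5% had a Lyz2 UMI (35%) and 45% an Itgb3 UMI (15%).

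Log2 folds that changed sign follow. At the 5% limit, against macrophages of the Lmx1b library, these were Col3a1 -2.26, Postn -1.21, Lum -1.39, Nmb -0.45 and Myo1d -1.09, and in the Pdgfra library Ccl8 0.54, a bound with 0 osteoclast UMIs. Against other barcodes of the Pdgfra library they were Coro1a -1.38, Itgb3 -1.18, H2-DMb1 -0.033 and Cd74 -0.88, and between libraries Col2a1 -0.95. At 100 CP10k they were Col3a1 -0.28 and Lum -0.29 against macrophages of the Pdgfra library. Against other barcodes they were Mcm3 -0.53 and Mcm5 -0.33 (Lmx1b library) and Gpnmb -2.37, Ccnb1 -0.28 and Lgmn -0.26 (Pdgfra library), and between libraries Mmp13 1.74, Itm2a 0.24 and Gpx3 1.72. Without cells over 1% mesenchymal RNA, Col3a1 had -0.90 and -0.50, Postn -0.67 and -0.79 and Lum -0.92 and -0.48 against macrophages, and Col2a1 -0.90, Mmp13 0.052 and Gpx3 0.31 between libraries.

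The following alternatives were chosen after seeing the data. Without members lacking Ocstamp and Dcstamp, against other barcodes, Cybb had -0.0036 (Lmx1b library) and Lyz2 -1.05, Fcgr3 -1.04, Gpnmb -1.23, Lgmn -0.36 and Adgre1 -0.55 (Pdgfra library). Without cycling members, chosen by Ube2c and Ccnb1 among others while macrophages kept their cycling cells, a drop is built in: against macrophages Ube2c had -5.95 and -1.23, Cdc20 -2.87 and -2.15 and Ccnb1 -3.17 and -3.54. Beyond the cells each choice removes, the causes were not tested.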

Other observations

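Set against the other kept barcodes, where 13.1% of tested genes were called higher and 17.4% lower, the osteoclasts were higher for 21 of 25 measured genes of mitochondria and oxidative energy and lower for 0, with medians of 1.54 and 1.55 (log2). Chchd10 had 470 CPM in osteoclasts against 6.18 CPM in other barcodes of the Lmx1b library and 444 against 3.55 CPM in the Pdgfra library. Of 8 measured genes for receptors and adaptors of RANK and CSF1 signalling 8 were higher, with medians of 4.84 and 4.77. Of 18 immediate early and dissociation stress genes 7 were lower and 0 higher, with medians of -0.97 and -1.29.

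Tnfsf11, which encodes the osteoclast-driving ligand RANKL, had 0 UMIs in osteoclasts, which allows up to 2.82 and 1.86 CPM, against 13.1 and 6.91 CPM in other barcodes. Csf1, the other such ligand, had 0.939 and 3.72 CPM from 1 and 6 UMIs in osteoclasts, against 23.4 and 24.1 CPM in other barcodes.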
